A study of Mus musculus with 6 samples.

Results

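The genes described here encode proteins of the myelin sheath and its making: Mbp, Mog, Mag, Mobp, Cnp, Mal, Ugt8a, Cldn11 and Omg. A member was measured where a probe set, the group of short probes that reads 1 transcript on the array, carried that 1 gene symbol in the platform annotation. This held for 8 of the 9 listed genes, with 14 probe sets, out of 8251 genes measured in the same way. Omg, encoding the oligodendrocyte-myelin glycoprotein, had no such probe set and was not analysed here. The probe set with the highest mean intensity stands for its gene.

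Spinal cord messenger RNA of mice of 3 genotypes was read on 6 Affymetrix arrays, with 1 array per genotype and age and RNA from 4 spinal cords on each. Mice labelled G93A-SOD1 have the G93A mutant of superoxide dismutase 1, known from familial amyotrophic lateral sclerosis, and were sampled at 110 days (strain label B6SJL-G93A-SOD1H) and at 75 days (B6SJL-G93A-SOD1). The submitters describe trembling and partial paralysis at 110 days and no symptoms at 75 days. Mice labelled WT-SOD1 have the wild-type transgene instead (strain label B6SJL-WT-SOD1 at 75 days, none at 110 days). The nontransgenic B6SJL mice carried no transgene. The submitters report no disease signs in WT-SOD1 mice and used nontransgenic mice as controls, and the 4 arrays of both genotypes are called disease-free here. The promoter of the transgenes and the sex of the mice are not given in the labels.

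Myelin of the central nervous system is made by oligodendrocytes, which wrap flattened sheets of membrane around axons. Basic proteins hold the cytoplasmic faces of these sheets together, claudin strands seal the layers, and glycoproteins of the outer and innermost layers face the surroundings and the axon. Galactolipids make up a large part of the membrane itself. Spinal cord white matter is rich in such sheaths, and oligodendrocytes of this tissue are known to be affected in mice with mutant SOD1.

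Median intensity lay between 77.7 and 80.9 on the 6 arrays, and intensities are on a linear scale as deposited. The Sod1 probe set read 1583 to 1906 on the 4 arrays of transgenic mice, against 1498 and 1037 on the nontransgenic arrays at 110 and 75 days. Arrays also differed in control probe sets and in cerebellar markers. At 110 and 75 days the 9 spike-in control probe sets averaged 746 and 645 in G93A-SOD1 cord, 1590 and 696 in WT-SOD1 cord, and 850 and 1198 in nontransgenic cord. The summed intensity of 7 cerebellar marker genes was 1074 and 1010 in G93A-SOD1 cord, 3424 and 1433 in WT-SOD1 cord, and 1910 and 2909 in nontransgenic cord. The WT-SOD1 110-day and the nontransgenic 75-day array were thus highest in both, and both G93A-SOD1 arrays were lowest in the cerebellar sum. The ratio of the 3′ to the 5′ control probe set of Gapdh, a measure of RNA integrity, was 1.30 and 1.49 on the G93A-SOD1 arrays, against 1.08 to 1.27 on the disease-free arrays. The same ratio of β-actin did not set them apart, at 1.90 and 1.998 against 1.69 to 2.39. The part of these differences in the results below was not tested, except where a value is given.

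Promoter sequences are shown for 3 members, because the results turn on them: Ugt8a lay farthest below the disease-free arrays at 75 days, Mag lay nearest to them at 110 days, and the probe sets of Mobp disagreed. Each run covers 250 bases before to 50 bases after the annotated start in GRCm38.p6, from RefSeq, with the strand of the gene written 5′ to 3′. The capitals mark the motifs listed after the sequences.
Ugt8a promoter, chr3:125938603-125938902, minus strand: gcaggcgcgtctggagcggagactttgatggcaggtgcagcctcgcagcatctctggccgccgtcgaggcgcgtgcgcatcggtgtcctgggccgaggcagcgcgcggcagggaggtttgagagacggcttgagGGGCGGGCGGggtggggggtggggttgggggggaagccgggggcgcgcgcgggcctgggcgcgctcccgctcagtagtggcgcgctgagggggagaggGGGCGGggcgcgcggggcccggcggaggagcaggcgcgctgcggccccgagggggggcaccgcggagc
Mobp promoter, chr9:120149492-120149791, plus strand: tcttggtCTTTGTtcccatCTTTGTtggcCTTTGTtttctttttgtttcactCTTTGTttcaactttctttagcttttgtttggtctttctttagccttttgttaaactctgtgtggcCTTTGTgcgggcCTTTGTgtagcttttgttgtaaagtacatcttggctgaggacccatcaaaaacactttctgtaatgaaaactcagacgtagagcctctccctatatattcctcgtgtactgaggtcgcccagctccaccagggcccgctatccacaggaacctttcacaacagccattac
Mag promoter, first of 3 annotated windows, chr7:30914814-30915113, minus strand: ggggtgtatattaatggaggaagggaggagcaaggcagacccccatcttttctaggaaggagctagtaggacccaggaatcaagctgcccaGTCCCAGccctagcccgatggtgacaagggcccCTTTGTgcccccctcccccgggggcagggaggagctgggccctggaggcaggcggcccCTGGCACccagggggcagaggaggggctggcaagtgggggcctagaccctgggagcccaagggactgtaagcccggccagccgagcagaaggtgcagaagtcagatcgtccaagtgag
The motifs were searched on both strands in the windows of the 7 members that RefSeq's table held. The letters ACAAAG, bound by SOX factors such as SOX10 of oligodendrocytes, occurred 6 times in the Mobp window, all on the minus strand, and once in this Mag window. Among the 7 members they were found in Mag, Mobp and Cnp, in 4 windows, of which 2 are overlapping windows of Mag. Of all 32851 windows 18.7% held them. These shares count windows and not genes, and a gene with several windows has more chances of a match. CTGGNAC, the pattern searched for the myelin regulatory factor MYRF with any base at N, occurred at 2 places in the Mag window. It was found in 4 windows, of Mog, Mag and Cnp, against 19.3% of all windows. GGGCGG, a GC box, occurred at 3 places in the Ugt8a window, of which the first and the second overlap by 2 bases. It was found in Cnp, Ugt8a and Cldn11, against 35.7% of all windows. No member's window held ACAATG, another SOX motif, which 12.6% of all windows held. Nor did any hold CAGCTG or the related E-box CAGATG, which 16.3% and 17.2% of all windows held. The TATA box, TATAAA, was likewise in no member's window and in 13.6% of all. These are matches of letters and not sites of binding.

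The first comparison asked whether myelin transcripts differed in G93A-SOD1 cord at 110 days, when the mice had symptoms. Mbp, Mog, Mal and Ugt8a read lower in G93A-SOD1 cord than on any of the 4 disease-free arrays. Mag, Mobp and Cldn11 lay within their range by their brightest probe sets. The other Mobp probe sets lay below all 4. All differences were small: the members' log2 differences ranged from -0.29 to 0.14, with a median of -0.22, beside -0.02 for all 6737 tested probe sets. None of the 7 tested members passed the test (limma, adjusted p from 0.536 to 0.989), and none had an unadjusted p under 0.05. Of all tested probe sets, 1.51% passed and 10.3% had an unadjusted p under 0.05. In bulk tissue, fewer oligodendrocytes and less RNA per cell cannot be told apart.

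Mbp encodes myelin basic protein, which binds the cytoplasmic faces of the membrane and compacts them. It read 3594 in G93A-SOD1 cord, against 4098 in WT-SOD1 and 4304 in nontransgenic cord at 110 days. At 75 days it read 3109 in G93A-SOD1 cord, against 3670 and 3665. The G93A-SOD1 array was thus the lowest of its age at both ages, and the disease-free arrays of an age lay closer to each other than to it. The log2 difference was -0.22 ± 0.13 (SE) at 110 days and -0.24 ± 0.13 at 75 days, with adjusted p of 0.674 and 0.590 in limma. The 95% interval at 110 days ran from -0.53 to 0.08, so that falls of up to 1.45-fold lay within it. A dimmer Mbp probe set read 106 to 114 on all 6 arrays and gave -0.08 at 110 and 0.04 at 75 days.

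Mobp encodes a small basic protein of compact myelin and was read by 4 probe sets. The brightest read 3746 in G93A-SOD1 cord, against 4128 in WT-SOD1 and 4401 in nontransgenic cord at 110 days, and 4293 against 3566 and 4340 at 75 days. It was lowest of its age in G93A-SOD1 cord at 110 days, and between the disease-free arrays at 75 days. Its log2 differences were -0.19 ± 0.16 (SE) and 0.13 ± 0.16. The other probe sets all lay below 0 at both ages, which at 75 days was the opposite sign. The farthest from 0 was the dimmest probe set, which read 410 in G93A-SOD1 cord against 490 and 690 in WT-SOD1 and nontransgenic cord at 110 days, and 319 against 433 and 510 at 75 days. It thus read lower in G93A-SOD1 cord than on all 4 disease-free arrays at both ages, with log2 differences of -0.50 ± 0.22 (adjusted p = 0.50) and -0.56 ± 0.22 (adjusted p = 0.496). At 75 days it lay 0.68 below the brightest probe set on the log2 scale. The probe sets of intermediate brightness, annotated with the same transcript record, gave -0.35 and -0.37 at 110 days, and -0.19 and -0.38 at 75 days. Both lay below all 4 disease-free arrays at 110 days. The second did so at 75 days too, with 961 and 925 in G93A-SOD1 cord against 1001 to 1437. None of the 4 passed the test. A value for Mobp at 75 days thus depends on the probe set.

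**Figure D1:**
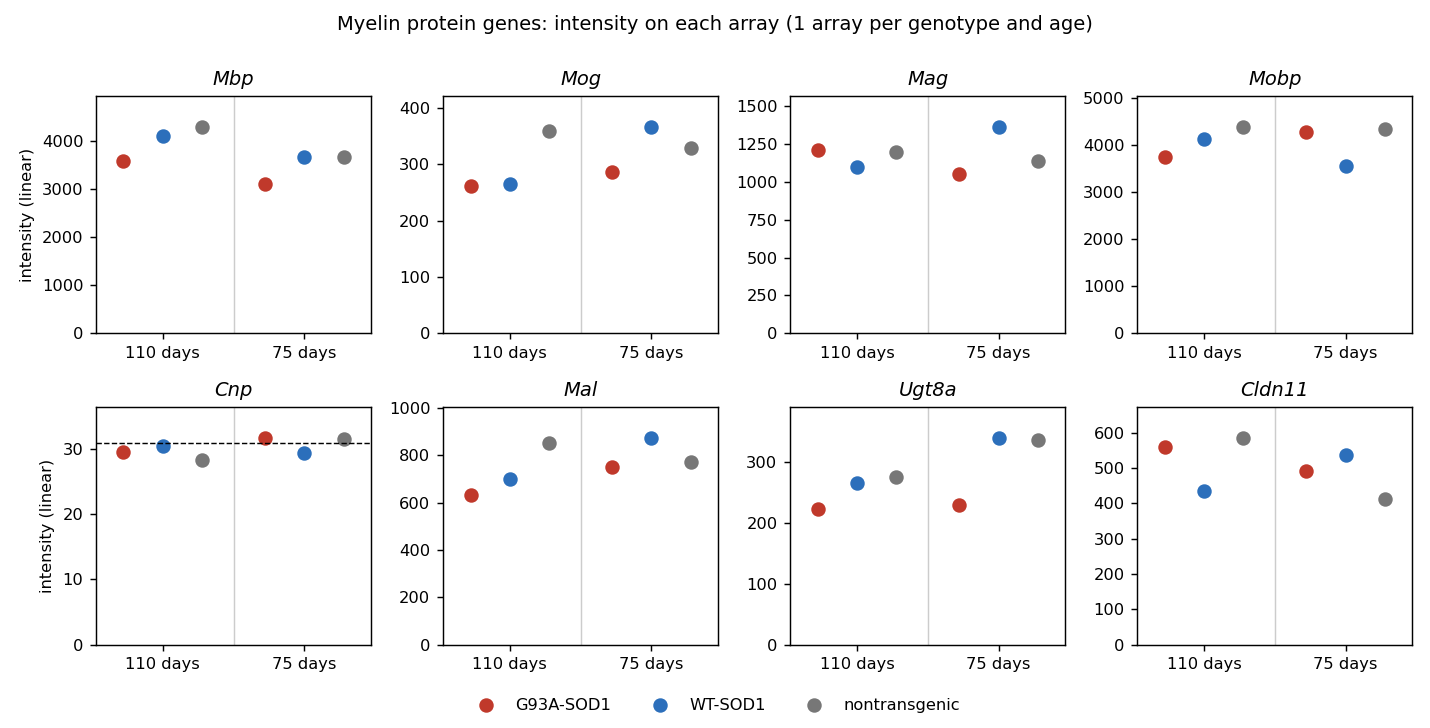
Linear intensity of the 8 measured myelin protein genes on each of 6 arrays, with 110 days left and 75 days right in each panel, and 1 point per genotype (G93A-SOD1 red, WT-SOD1 blue, nontransgenic grey). The dashed line in the Cnp panel is the floor of 31. Ugt8a is lower on both G93A-SOD1 arrays (223 and 229) than on all 4 disease-free arrays (266 to 341).

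Cldn11 encodes claudin-11, which forms the tight-junction strands between myelin layers. It read 559 in G93A-SOD1 cord, against 436 in WT-SOD1 and 586 in nontransgenic cord at 110 days, and 492 against 536 and 411 at 75 days. The G93A-SOD1 array lay between the disease-free arrays at both ages. The lowest values, 436 and 411, were those of the arrays with the highest spike-in and cerebellar marker levels. Its log2 difference was 0.14 ± 0.23 (SE) at 110 and 0.07 ± 0.23 at 75 days. With a term for the spike-in level it was -0.06 and -0.13. That term marked the WT-SOD1 110-day and nontransgenic 75-day arrays and did not use the measured level. A second probe set of Cldn11 lay under the floor on all 6 arrays.

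Mal encodes a proteolipid of lipid rafts that takes part in sorting membrane to the sheath. It read 630 in G93A-SOD1 cord, against 701 in WT-SOD1 and 851 in nontransgenic cord at 110 days, and 752 against 874 and 772 at 75 days. It was the lowest of its age at both ages, but at 75 days it was above the WT-SOD1 110-day array. The log2 difference was -0.29 ± 0.17 (SE, adjusted p = 0.665) at 110 days and -0.13 ± 0.17 (adjusted p = 0.831) at 75 days. The disease-free arrays of 110 days differed by 0.28 on this scale, about as much.

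Cnp encodes the phosphodiesterase of cytoplasm-rich, non-compact myelin. Its 1 probe set read 28.3 to 31.7 on all arrays and lay at or under the floor on 4 of 6. It did not pass the filter on low values, and its values have no order.

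Ugt8a encodes the enzyme that joins galactose to ceramide, the step that makes the galactolipids of myelin. It read 223 in G93A-SOD1 cord, against 266 in WT-SOD1 and 276 in nontransgenic cord at 110 days. At 75 days it read 229 in G93A-SOD1 cord, against 341 and 337. Both G93A-SOD1 arrays were below all 4 disease-free arrays, and the disease-free arrays of an age differed by at most 0.06 on the log2 scale. The log2 difference at 75 days was -0.56 ± 0.13 (SE), or 0.677 times the disease-free level, with a 95% interval from -0.87 to -0.26. Its unadjusted p was 0.00337, a value under 0.05 that 9.86% of all tested probe sets also had, and its adjusted p was 0.446. At 110 days the log2 difference was -0.28 ± 0.13 (adjusted p = 0.536), or 0.822 times the disease-free level. Against the WT-SOD1 or the nontransgenic 75-day array alone, the difference at 75 days was -0.57 or -0.56. It lay between -0.58 and -0.48 under every alternative tried.

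Mog and Mag encode surface glycoproteins. Mog, on the outermost layer of the sheath, read 262 in G93A-SOD1 cord, against 265 in WT-SOD1 and 359 in nontransgenic cord at 110 days, and 286 against 367 and 328 at 75 days. The G93A-SOD1 array was the lowest of its age at both ages, yet at 110 days it lay next to the WT-SOD1 array. The difference from WT-SOD1 was -0.02 at 110 days, while the difference from nontransgenic was -0.46. Against both, Mog stood at -0.24 ± 0.20 (SE, adjusted p = 0.860) at 110 days and -0.28 ± 0.20 (adjusted p = 0.664) at 75 days.

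Mag, on the innermost layer, binds the axon and is a ligand of the receptors that limit axon growth. Its brightest probe set read 1211 in G93A-SOD1 cord, against 1101 in WT-SOD1 and 1197 in nontransgenic cord at 110 days, and 1051 against 1366 and 1137 at 75 days. It was the highest of its age at 110 days and the lowest of all 6 arrays at 75 days. A second probe set read 799 in G93A-SOD1 cord, against 733 and 847 at 110 days, and 821 against 830 and 850 at 75 days. The log2 differences were 0.08 ± 0.16 (SE) and 0.02 ± 0.15 at 110 days, and -0.25 ± 0.16 and -0.03 ± 0.15 at 75 days. Both probe sets had the same sign at each age, and neither passed the test.

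**Figure D2:**
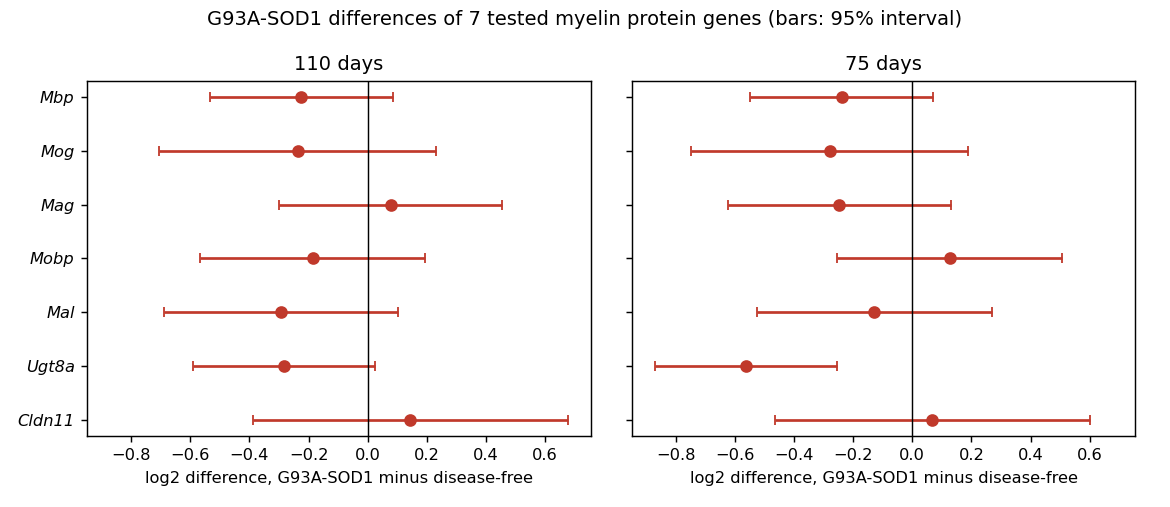
Log2 difference of G93A-SOD1 minus disease-free intensity for the 7 tested members at 110 days (left) and 75 days (right), with points for the estimate and bars for its 95% interval. Every interval at 110 days includes 0, and at 75 days that of Ugt8a, from -0.87 to -0.26, does not.

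**Figure D3:**
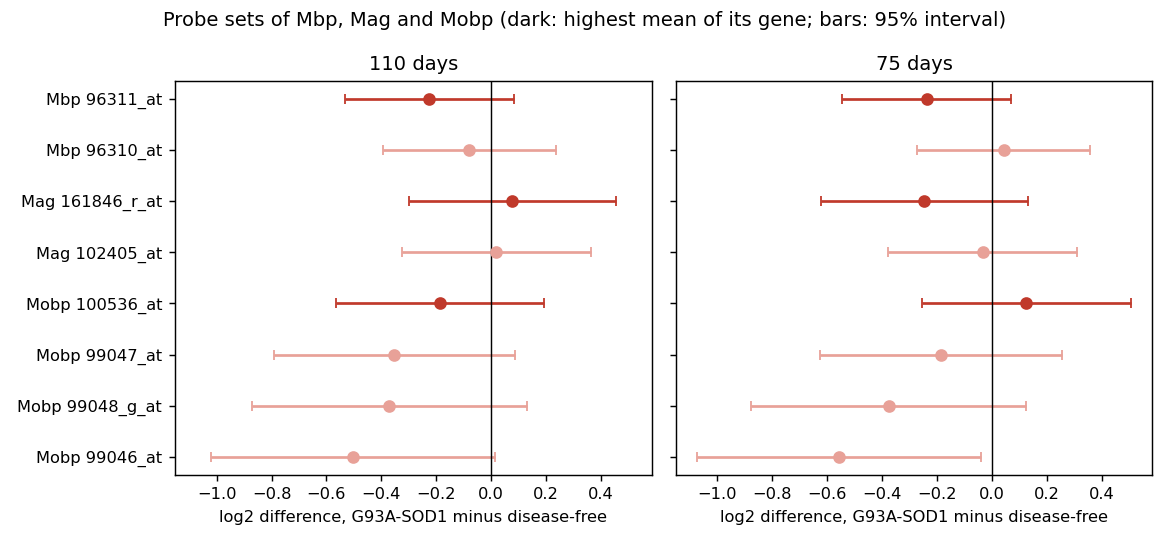
Log2 difference of G93A-SOD1 minus disease-free intensity for each tested probe set of Mbp, Mag and Mobp at 110 days (left) and 75 days (right), with bars for the 95% interval and the brightest probe set of each gene in dark red. At 75 days the brightest Mobp probe set lies at 0.13 and the other Mobp probe sets lie from -0.19 to -0.56.

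The comparison at 75 days asked whether these transcripts differed before symptoms. Mbp, Mag and Ugt8a read lower in G93A-SOD1 cord than on any disease-free array, and the members' log2 differences ranged from -0.56 to 0.13. Their median was -0.24, beside -0.04 for all tested probe sets. None of the 7 passed the test in limma, and 1, Ugt8a, had an unadjusted p under 0.05, while 0% of all tested probe sets passed and 9.86% had such a p. At each age 5 of 7 members had a difference below 0, as did 55.1% of all probe sets at 110 days and 57.5% at 75 days.

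Positions outside the range of the disease-free arrays were common on the G93A-SOD1 arrays. Members are counted here by their brightest probe sets, which for Mobp differ from its other probe sets. At 110 days 4 of 7 members lay below all 4 disease-free arrays, against 27% of all tested probe sets, and at 75 days 3 of 7 did, against 34.7%. Mbp and Ugt8a, 2 of 7, lay below at both ages, against 15.6%. No member lay above all 4 at either age, against 16.9% of all probe sets at 110 days and 23.9% at 75 days. Set against the pair of its own age alone, 5 of 7 members were lower than both at 110 days (35.3% of all probe sets) and 5 of 7 at 75 days (46.8%). Mbp, Mog, Mal and Ugt8a, 4 of 7, were lower than their pair at both ages, against 21.3%. Among the members' brightest probe sets, 95% intervals at 110 days reached at most a 1.63-fold fall (Mog) and a 1.60-fold rise (Cldn11). At 75 days they reached a fall of 1.83-fold, for Ugt8a, and a rise of 1.52-fold, for Cldn11. The dimmest Mobp probe set had an interval that reached farther, to a fall of 2.03-fold at 110 days and 2.10-fold at 75 days.

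The change of the G93A-SOD1 difference between ages was tested directly. No member's change from 75 to 110 days passed (limma, 0 of 7, none with an unadjusted p under 0.05), while 0.416% of all probe sets passed and 6.23% had an unadjusted p under 0.05. The changes ranged from -0.31 for Mobp to 0.32 for Mag, with a median of 0.04 beside 0.00456 for all probe sets. Both ends are those of the brightest probe sets. The second Mag probe set gave 0.05, and the other Mobp probe sets gave -0.17, 0.01 and 0.05. Ugt8a had a change of 0.28 ± 0.18 (SE, adjusted p = 0.984), with a 95% interval from -0.15 to 0.72. A smaller difference of Ugt8a at 110 than at 75 days was thus not detectable with these arrays.

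Age was compared within disease-free cord, 110 against 75 days, on 2 arrays of each age. Ugt8a averaged 271 at 110 days and 339 at 75 days, and both 110-day arrays lay below both 75-day arrays (log2 difference -0.32 ± 0.11 SE, adjusted p = 0.998, unadjusted p = 0.0188). Mbp averaged 4201 at 110 days and 3667 at 75 days, with both 110-day arrays above both 75-day arrays (0.20 ± 0.11, adjusted p = 0.998). For the other 5 tested members the ages overlapped. The ages did not overlap for 29.2% of all probe sets, so that 2 of 7 is close to the background. None of the 7 passed the test and 1 had an unadjusted p under 0.05, while 0.0148% of all probe sets passed and 3.1% had an unadjusted p under 0.05. The members' median was -0.09, beside -0.00364 for all probe sets.

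The WT-SOD1 transgene was compared with no transgene over both ages. No member passed (limma, 0 of 7, none with an unadjusted p under 0.05), against 0.104% and 1.17% of all probe sets. Differences ranged from -0.19 for Mobp to 0.07 for Mag, each ± 0.19 SE, with a median of -0.03, and 6 of 7 lay below 0, against 48.8% of all probe sets. The ages did not go the same way. At 110 days all 7 members were lower in WT-SOD1 than in nontransgenic cord (log2 differences -0.44 to -0.06), whereas at 75 days 1 of 7, Mobp, was lower and the others were 0.00 to 0.38 higher. The share over all probe sets was not counted for each age. Except for Mobp at 75 days, the lower array was the disease-free array of its age with the higher spike-in and cerebellar marker levels. The part of those levels in this pattern was not tested. The G93A-SOD1 difference exceeded this gap between the disease-free arrays of its age for 4 of 7 members at 110 days, against 39.4% of all probe sets, and for 3 of 7 at 75 days, against 61.7%.

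The members did not follow 1 common pattern over the 6 arrays. Mog and Mal were most alike (Pearson r = 0.94 between their log2 levels), and Mog and Ugt8a came next at 0.76. The brightest probe sets of Mag and Mobp ran opposite ways, at -0.76. No correlation was computed for their other probe sets, and those of Mobp disagreed with its brightest at 75 days. Over all 21 pairs of members the median r was 0.26, with 17 above 0. These correlations describe 6 arrays that differ in genotype, age and overall array level, and they carry no test. The mean of the members' centred levels was lowest in G93A-SOD1 cord at 110 and 75 days (-0.11 each) and in WT-SOD1 cord at 110 days (-0.07), and highest in nontransgenic cord at 110 days (0.14) and WT-SOD1 cord at 75 days (0.13). The genes outside the list most like this mean were Isoc1 (r = 0.999), Idh3a, a subunit of a citric acid cycle dehydrogenase (0.984), Hivep1 (0.982), Plekhb2 (0.982) and Slc4a3, an anion exchanger (0.975). None of these 5 passed the test at either age. Of 3246 candidate genes, 3.97% had an r above 0.9 with it.

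**Figure D4:**
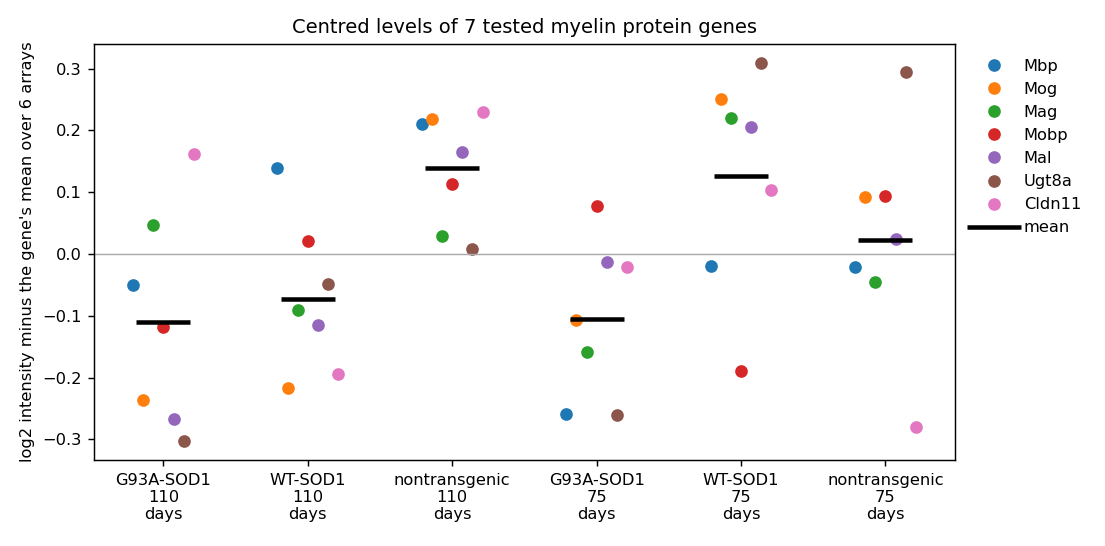
Log2 intensity of each of the 7 tested members minus its own mean over the 6 arrays (coloured points, 1 per gene), with black bars for the mean of the members on each array. The bar is lowest on both G93A-SOD1 arrays (-0.11 each), and the members spread widely around it on every array.

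Other genes of oligodendrocytes gave 1 call. Of 12 other myelin and oligodendrocyte genes with a probe set (29 listed), 11 were tested, 1 rose and 0 fell at 110 days. The gene that rose was Cd9, encoding a tetraspanin found in myelin and on other cell types, which read 437 in G93A-SOD1 cord, against 205 in WT-SOD1 and 197.7 in nontransgenic cord. That was a 2.17-fold rise (log2 difference 1.12 ± 0.13 SE, adjusted p = 0.00869 in limma). With no filter on level the adjusted p was 0.152. The list's median was 0.14 at 110 days, with 3 of 11 below 0, and 0.02 at 75 days with 0 calls. Among 8 tested transcription and RNA regulators of oligodendrocytes 0 passed, and the medians were 0.02 at 110 days and -0.02 at 75 days. Nkx6-2, a homeobox factor of oligodendrocytes, stood at 0.54 (adjusted p = 0.151), and Qk, encoding an RNA-binding protein that handles Mbp transcripts, at -0.39 (adjusted p = 0.659). Without the WT-SOD1 110-day array, which leaves 1 array on each side, the log2 differences were 0.50 for Nkx6-2 and -0.65 for Qk. Of 6 tested precursor genes 0 passed (medians 0.02 and -0.03), with Bcan at -0.24 and the growth factor receptor gene Pdgfra at 0.15.

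Lipid genes gave 0 calls. Of 19 tested genes of myelin lipid and cholesterol synthesis, 13 had a difference below 0 at 110 days and 15 at 75 days, with medians of -0.21 and -0.14, beside 55.1% and 57.5% of all probe sets below 0. In WT-SOD1 against nontransgenic cord 17 of the 19 also lay below 0, beside 48.8% of all. Hmgcs1, an early enzyme of cholesterol synthesis, read 354 in G93A-SOD1 cord, against 482 and 739 in WT-SOD1 and nontransgenic cord at 110 days, and 355 against 597 and 529 at 75 days. Idi1, an isoprenoid enzyme of the same route, read 251.2 in G93A-SOD1 cord, against 364 and 471 in WT-SOD1 and nontransgenic cord at 110 days, and 313 against 453 and 391 at 75 days. Both were below all 4 disease-free arrays at both ages, and neither passed the test with all arrays: log2 differences at 110 days were -0.75 (adjusted p = 0.307) and -0.72 (adjusted p = 0.190), and at 75 days -0.66 (adjusted p = 0.495) and -0.43 (adjusted p = 0.521). Both passed at 110 days with a term for the spike-in level (adjusted p = 0.0149 for Hmgcs1 and 0.00908 for Idi1). Without the WT-SOD1 110-day array, which leaves 1 array on each side, the log2 differences were -1.06 for Hmgcs1 and -0.907 for Idi1. Without the nontransgenic 110-day array, the higher of the pair for both genes, both differences were smaller than with all arrays. Leaving out either 110-day disease-free array left the difference of Hmgcs1 at 75 days unchanged, at -0.66, because those arrays enter only the spread.

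Mag and Omg act on axons through a shared receptor complex, and Rtn4 encodes Nogo, another ligand of it. Of 3 tested genes of this list 0 passed. Lrp1, an endocytic receptor gene, stood at 0.34 (adjusted p = 0.543) and Rtn4 at -0.18 (adjusted p = 0.878) at 110 days, and the list's medians were -0.09 and -0.25. Peripheral myelin genes, which nerve roots on the cord would bring, gave 0 calls among 2 tested genes. Dhh stood at 0.08 and Pmp22 at 0.01 at 110 days. Their 75-day differences were 0.13 and -0.43 (adjusted p = 0.840 and 0.495 in limma). Pmp22 then read 183 in G93A-SOD1 cord, below all 4 disease-free arrays (229 to 265). The summed intensity of the 3 measured genes of that list was 503 in G93A-SOD1 cord at 110 days and 440 at 75 days, against 458 to 508 on the disease-free arrays.

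Some markers of other cells changed on the same arrays. Of 9 measured microglia and macrophage markers, 8 were tested and rose at 110 days, and their summed intensity with the untested Itgam was 6181 in G93A-SOD1 cord, against 1761 in WT-SOD1 and 1645 in nontransgenic cord. Aif1 and Lyz2 exceeded the level needed for testing on the G93A-SOD1 110-day array alone, so that the filter favoured a rise for them. On the log2 scale the rises were 0.99 for Aif1, 1.37 for Csf1r, 1.504 for Ctss, 2.07 for C1qa, 2.31 for Cd68, 2.36 for C1qb, 2.41 for Tyrobp and 2.84 for Lyz2. With no filter on level none of the 8 passed (adjusted p from 0.106 for C1qb to 0.368 for Csf1r). Aif1 was also lost with a floor at the 40th percentile (adjusted p = 0.0677), with a pseudocount of 50 (0.055) and with arrays scaled to 1 median (0.0503).

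Of 7 tested astrocyte markers 1 rose, Gfap at 1.25 (adjusted p = 0.0304), while 4 lay below 0 and the median was -0.03. The summed intensity of the 7 measured astrocyte markers other than Gfap was 7647 in G93A-SOD1 cord at 110 days, against 7476 in WT-SOD1 and 7844 in nontransgenic cord. Within that sum Aqp4 read 1309, against 765 and 496 (log2 difference 1.09, adjusted p = 0.132 in limma). Of 10 tested neuron markers 1 fell, Nefm at -0.82 (adjusted p = 0.0301), and all 10 lay below 0. The summed intensity of 11 neuron markers was 7640 in G93A-SOD1 cord, against 10309 and 11263. Neither call held with a floor at the 40th percentile (adjusted p = 0.101 for Gfap and 0.0594 for Nefm), with no filter on level (0.515 and 0.174) or with arrays scaled to 1 median (0.0603 and 0.0597). At 75 days 0 of the 3 lists' tested genes passed, and the microglial sum was 1558 in G93A-SOD1 cord, against 1453 and 1312. Gfap then read 2743 in G93A-SOD1 cord, against 1596 in WT-SOD1 and 1617 in nontransgenic cord (adjusted p = 0.460 in limma). Of 4 endothelial markers 0 passed, with Cldn5 at -0.29 and Vwf at -0.08. Of 6 cerebellar markers 0 passed with all arrays and no added term, with Gabra6 at -2.63 and Car8 at -2.15. Gabra6 lay under the floor on both G93A-SOD1 arrays (21.3 and 25.2), so that its difference is counted from the floor. With a term for the spike-in level both passed at 110 days, at -1.37 for Gabra6 (adjusted p = 0.00152) and -1.22 for Car8 (adjusted p = 0.00316). Leaving out either 75-day disease-free array left both 110-day differences unchanged, because those arrays enter only the spread. The WT-SOD1 and nontransgenic 110-day arrays read 429 and 85.5 for Gabra6, and 332 and 78.9 for Car8. Without the nontransgenic 110-day array, which leaves 1 array on each side, the difference of Car8 was -3.19. Without the WT-SOD1 110-day array the difference of Car8 was smaller than with all arrays. The part of other cells' RNA in the members' lower readings was not tested.

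**Figure D5:**
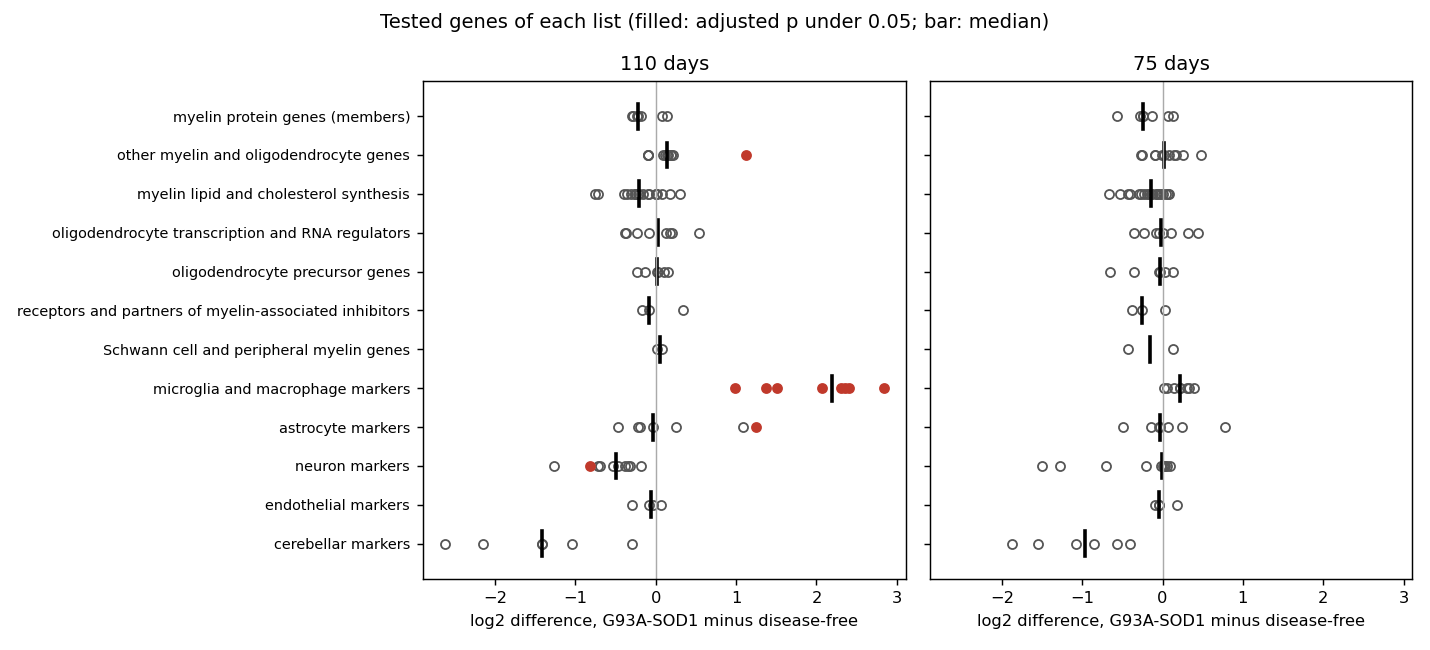
Log2 difference of G93A-SOD1 minus disease-free intensity for the tested genes of each list at 110 days (left) and 75 days (right), with 1 circle per gene, filled where the adjusted p was under 0.05, and a black bar for the list's median. Myelin protein genes lie between -0.29 and 0.14 at 110 days, while the microglia and macrophage markers lie between 0.99 and 2.84.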

How the data were processed

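Pooled spinal cord messenger RNA was labelled with biotin and hybridised once per array, per the labels' protocols. The authors deposited a linear intensity for each probe set; the sources do not state how probes were summarised or scaled. Of 12488 rows, 66 control probe sets were left out. The floor was the 25th percentile of the intensities, 31, and values below it were set to 31 before log2. A probe set was tested where at least 1 array exceeded the pooled median, 79.7, which 6737 of 12422 did. Of these 12422, 10833 had 1 gene symbol.

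Linear models were fitted with limma 3.58.1 (R 4.3.3, moderated by eBayes), and p-values were adjusted by Benjamini-Hochberg over all 6737, with a threshold of 0.05. G93A-SOD1 was set against the WT-SOD1 and nontransgenic pair of its age in a model of 4 means (2 residual degrees of freedom, prior 5.13). WT-SOD1 and nontransgenic were compared on 4 arrays, adjusting for age, with 1 residual degree of freedom and a pooled SD of 0.193. No group has a second array: the spread comes from pairs of unlike genotype, and each lone G93A-SOD1 array is assumed to vary as they do. The number of arrays limits the precision. Errors given as SE are standard errors of log2 differences after moderation.

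All 9 members are named. From each of 11 other lists, genes past the test at either age are named, or else the 2 farthest from 0 at 110 days, and also the 5 genes most like the members' mean. Members, lists and alternatives were chosen with earlier results of these data known. The fits were tested on simulated arrays. Alternatives changed the floor, filter, scaling, comparison arrays and probe set rule.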

Additional observations from a re-analysis of the deposited data

How the results depend on the processing

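No paired analysis was possible because each genotype and age has 1 array, so that no 2 groups share more than 1 replicate number. The members' median lay between -0.26 and -0.14 at 110 days and between -0.26 and -0.11 at 75 days under every alternative tried, and no member passed the adjusted test under any. Counting unadjusted p under 0.05 in its place gave 1 member at 75 days and 1 for age, Ugt8a both times. Below 0 under every alternative were Mbp, Mog, Mal and Ugt8a at both ages, Mobp at 110 days and Mag at 75 days. With a term for the spike-in level, values at 110 days turned to -0.0577 for Cldn11, -0.0184 for Mag and -0.0411 for Pmp22, and that of Cldn11 at 75 days to -0.13. The mean of all probe sets gave -0.25 for Mobp at 75 days, -0.0552 for the change of Mbp and -0.0248 for Mag in WT-SOD1 minus nontransgenic. Scaling to 1 median gave -0.018 for the change of Mbp, and quantile normalization gave 0.0167 for Cldn11 and 0.000643 for Ugt8a in WT-SOD1 minus nontransgenic. The cause of these reversals was not tested. Leaving out each disease-free array in turn, which leaves fewer arrays per mean, moved Cldn11 between -0.0682 and 0.36, Dhh between -0.0949 and 0.26, and Vwf between -0.21 and 0.042 at 110 days. At 75 days it moved Cldn11 between -0.12 and 0.26 and Mobp between -0.0156 and 0.27. For the change between ages it gave -0.14 to 0.29 for Cldn11, -0.0218 to 0.0487 for Mbp, -0.18 to 0.26 for Mog, and -0.14 (without the WT-SOD1 110-day array) to 0.26 (without the nontransgenic 110-day array) for the members' median. For age it gave -0.11 to 0.32 for Cldn11, -0.25 to 0.0138 for Mag, -0.23 to 0.0505 for Mal, -0.0261 to 0.26 for Mobp, and -0.39 to 0.0469 for Mog. For WT-SOD1 minus nontransgenic the members' median ranged from -0.12 without either 75-day array to 0.16 without either 110-day array. Cnp at the floor and Omg without a probe set limit the list to 7 genes, and differences smaller than the intervals given were not detectable with 6 arrays.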
